A study of Rattus norvegicus with 6 samples.

Results

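Along the distal part of rat chromosome 20, most expressed genes of INS-1 cells were read at lower levels in cells carrying one menin mutant than in cells carrying another. The block runs from 28815039 to 56196961 on chromosome 20 of the rn6 build, a stretch of 27.4 Mb that ends with the last listed gene of the chromosome. The deposited table lists 283 rows inside these limits. Leaving out 6 rows by name (Rfx6, Hdac2, Hk1, Foxo3, Sesn1 and Ddit4) left 277 members, of 35362 rows in the whole table. No ribosomal protein gene lay inside the limits. The block was chosen from the same comparison that is described here, S487D against S487A, so the differences of its members are a description and support nothing by themselves. Where limma calls are given for members, they come from one fit over all compared rows and serve only as labels.

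INS-1 is an insulin-secreting line grown from a rat insulinoma and stands in for pancreatic beta cells. Cells at passages 75 to 80 overexpressed a Flag-tagged menin mutant after transduction with a retrovirus made from a pMX-puro vector, and mRNA was sequenced from 3 libraries of S487A cells and 3 of S487D cells. S487A puts alanine, a residue without a phosphorylatable hydroxyl, in place of a serine of menin, and S487D puts the acidic residue aspartate there. Menin is encoded by Men1 and holds histone methyltransferases and other transcriptional regulators together in the nucleus. Every library carries a mutant, and neither untransduced cells nor cells with added wild-type menin were analysed here. Whether each library had its own culture or transduction is not stated in the labels, so p-values measure only the spread between these libraries, and the mutant cannot be told apart from the cell population that carries it. In such bulk samples, fewer cells that express a gene and less RNA per cell cannot be told apart.

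Libraries held 9444801 to 10867549 reads assigned to listed genes. The 7 beta cell markers examined were all read, with summed levels of 5214 to 5761 RPKM in S487A and 17521 to 18700 RPKM in S487D. RPKM is reads per kilobase of gene, scaled to the assigned reads of the library. The delta cell marker Sst and 3 acinar markers were at 0 in every library, and none of 7 fibroblast, endothelial and leukocyte markers reached 1 RPKM. The alpha cell gene Gcg was read at 91.6 to 104 RPKM in S487A and 783 to 864 in S487D. The duct keratins Krt7 and Krt19 summed to 208 to 226 RPKM in S487A and 80.6 to 84.5 in S487D, with Krt19 under 1 RPKM in every library. Whether these differences bear on the block was not tested.

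Neighbouring genes in a mammalian chromosome mostly have unrelated functions, and each is usually read from its own promoter. Some neighbours are transcribed in opposite directions from a shared promoter region. The genes of this block serve lysosomes and the secretory pathway, mitochondrial calcium uptake, DNA repair, ribosome assembly, sphingolipid breakdown, kinase signalling and neural adhesion.

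To show how different the starts of these genes are, the 250 bases before the annotated start are printed for a pair of members that were lowered most and a pair that were not lower without overlap. Smpdl3a and Frk had the lowest ratios among members with an established symbol that had enough reads to be compared. Gpr6 was highest in S487D relative to S487A, and Amd1 had nearly equal levels. The sequences come from RefSeq on the GRCr8 build, read 5′ to 3′ on the strand of the gene, at chr20:37678754-37679003 (plus strand) for Smpdl3a, chr20:39820191-39820440 (plus strand) for Frk, chr20:45265983-45266232 (minus strand) for Amd1 and chr20:46075252-46075501 (minus strand) for Gpr6. Capitals mark CG pairs, which are dense in the promoters of broadly expressed genes.
Smpdl3a: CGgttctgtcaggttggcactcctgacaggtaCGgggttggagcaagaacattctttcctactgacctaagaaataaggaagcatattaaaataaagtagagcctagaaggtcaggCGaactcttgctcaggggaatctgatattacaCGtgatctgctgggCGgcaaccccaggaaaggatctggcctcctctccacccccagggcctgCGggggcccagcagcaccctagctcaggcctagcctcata
Frk: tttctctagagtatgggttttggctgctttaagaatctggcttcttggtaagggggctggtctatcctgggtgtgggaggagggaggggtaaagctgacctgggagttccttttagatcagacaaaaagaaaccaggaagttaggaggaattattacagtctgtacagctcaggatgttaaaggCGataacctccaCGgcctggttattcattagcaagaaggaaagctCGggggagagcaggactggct
Amd1: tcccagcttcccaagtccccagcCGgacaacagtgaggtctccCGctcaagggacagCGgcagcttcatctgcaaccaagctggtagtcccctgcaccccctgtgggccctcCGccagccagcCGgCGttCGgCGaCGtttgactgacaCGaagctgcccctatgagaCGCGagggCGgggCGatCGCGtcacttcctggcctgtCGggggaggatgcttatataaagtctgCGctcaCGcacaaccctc
Gpr6: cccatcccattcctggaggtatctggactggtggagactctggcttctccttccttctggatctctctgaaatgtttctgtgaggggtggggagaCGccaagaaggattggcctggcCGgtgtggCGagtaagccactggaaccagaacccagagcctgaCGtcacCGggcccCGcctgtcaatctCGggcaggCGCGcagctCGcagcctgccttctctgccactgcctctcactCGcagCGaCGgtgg
The Smpdl3a and Frk sequences hold 6 and 3 CG pairs, and those of Amd1 and Gpr6 hold 19 and 13. Of the 96 members with enough reads to be compared, 76 had a single RefSeq promoter entry. Their 250-base sequences held a median of 20 CG pairs, against 17 over 7959 comparable genes of the whole table and 5 over all 33465 promoter entries. Among 8 members whose S487D level was under 0.5 of the S487A level the median was 9 CG pairs, ranging from 3 to 38. Among 8 members with a ratio over 0.9 it was 18.5, ranging from 6 to 24. In the lower set, LOC102555143 and Ros1, with 4 and 3 CG pairs, were under 1 RPKM in every S487D library. They were compared only through their S487A levels. The rest of that set, P4ha1, Cdh23, Pkib, Smpdl3a, Frk and Ppil6, held 25, 38, 12, 6, 3 and 22. Whether CG content goes with the ratio was not tested.

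Short promoter motifs were searched on both strands in these sequences. The letters GGGCGG (GC box) stood in 47 of 76 member promoters (61.8%) and in 61.6% of the 7959. The letters CCAAT stood in 36 (47.4%) and 35.7%, and TATAAA in 4 (5.26%) and 5.49%. The full cAMP response element TGACGTCA stood in 4 (5.26%) and 3.13%. Over all 33465 entries the shares were 30.5%, 34.0%, 12.9% and 1.59% in the same order. Overlap of a motif with another was not excluded. The 4 members with the cAMP element were Vps26a, Tspyl1, Tspyl4 and Gpr6, of which Gpr6 was higher in S487D and the other three were lower. A match is a run of letters and not a shown binding site.

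Of the 277 members, 96 reached at least 1 RPKM in at least 3 libraries and were compared. That share, 34.7%, is close to the 35.4% of all rows in the table. A further 73 members were at 0 in every library and 108 had reads but stayed under the limit. For 2 of the 96, every S487D library was under 1 RPKM, so these entered only through S487A. A member is called lower here when all 3 S487D libraries lie below all 3 S487A libraries, higher in the opposite case, and overlapping otherwise. In this sense 82 of the 96 were lower, 11 overlapped and 3 were higher. Over all 12527 rows compared, 29.5% were lower, 45.4% overlapped and 25.0% were higher. With limma on log2(RPKM + 1) and Benjamini-Hochberg adjustment over all rows compared, 80 members were called lower and 1 higher at an adjusted p under 0.05, where 24.3% and 20.1% of all rows were called. Over the whole table this was 3041 rows lower and 2523 higher, and the split turned to 2492 and 3096 after quantile normalization and to 2453 and 3512 after median centring. Since this contrast chose the block, nothing is read from these counts.

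Reads of the members made up 0.880, 0.859 and 0.872% of all assigned reads in the S487A libraries and 0.633, 0.610 and 0.622% in the S487D libraries. The 3 libraries of each group lay close together and the groups did not overlap. The median member stood at 0.712, 0.690 and 0.702 of its S487A mean in the 3 S487D libraries. In the same libraries the median over all rows compared was 1.00, 0.973 and 0.989. The 3 S487D libraries differed little from each other in this median.

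**Figure D1:**
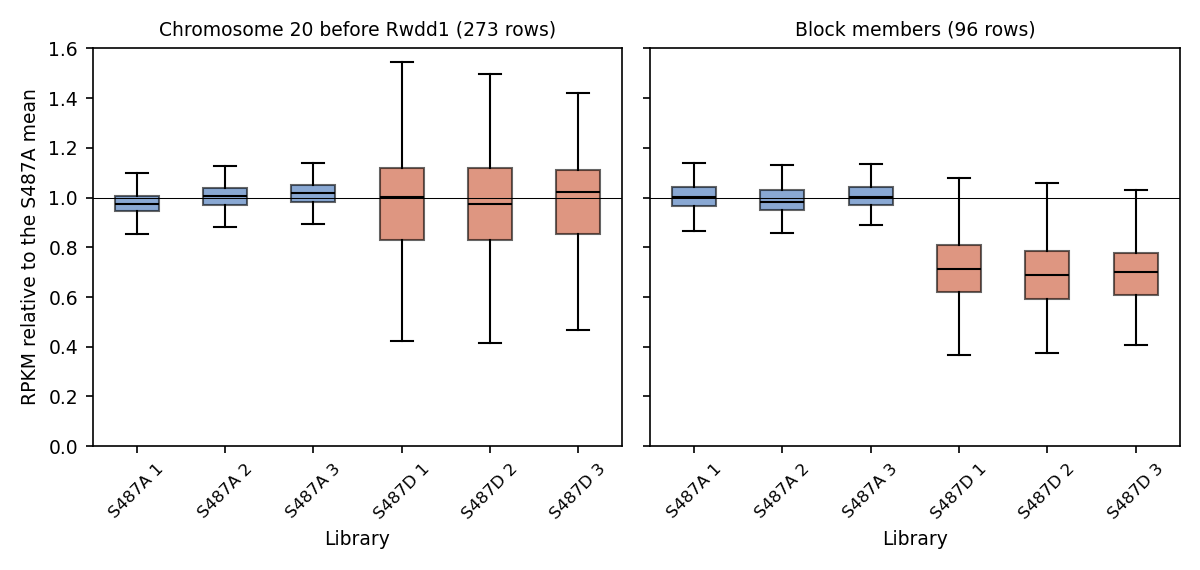
RPKM of each row relative to its own S487A mean, by library, for 273 compared rows of chromosome 20 before Rwdd1 (left) and for the 96 compared members (right). Boxes span the quartiles with the median as a line, whiskers reach 1.5 times the box length and rows beyond them are not drawn; the 3 S487D medians sit at 0.690 to 0.712 in the block and at 0.974 to 1.02 before it.

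Each member's ratio was taken as mean RPKM in S487D over mean RPKM in S487A. The median ratio was 0.701, with quartiles of 0.607 and 0.772, while all rows compared had a median of 0.989 and quartiles of 0.851 and 1.12. Of the 96, 54 (56.3%) had a ratio from 0.6 to 0.8, as had 13.1% of all rows compared. The median log2 difference was -0.43 on the log2(RPKM + 1) scale, where differences of weakly read genes come out too small. Mean levels of the compared members in S487A ranged from 1.27 to 414 RPKM, with 26 members under 5 RPKM and 10 at 100 RPKM or more. Split by level in S487A into 3 sets of 32, the low, middle and high sets had median ratios of 0.684, 0.734 and 0.688. Split by gene length, the short, middle and long sets had 0.728, 0.692 and 0.694. The median was therefore similar for weakly and strongly read genes and for short and long ones. The spread was wider at low levels, where 9 of 32 members were under 0.5, against 0 of 32 in the high set.

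**Figure D2:**
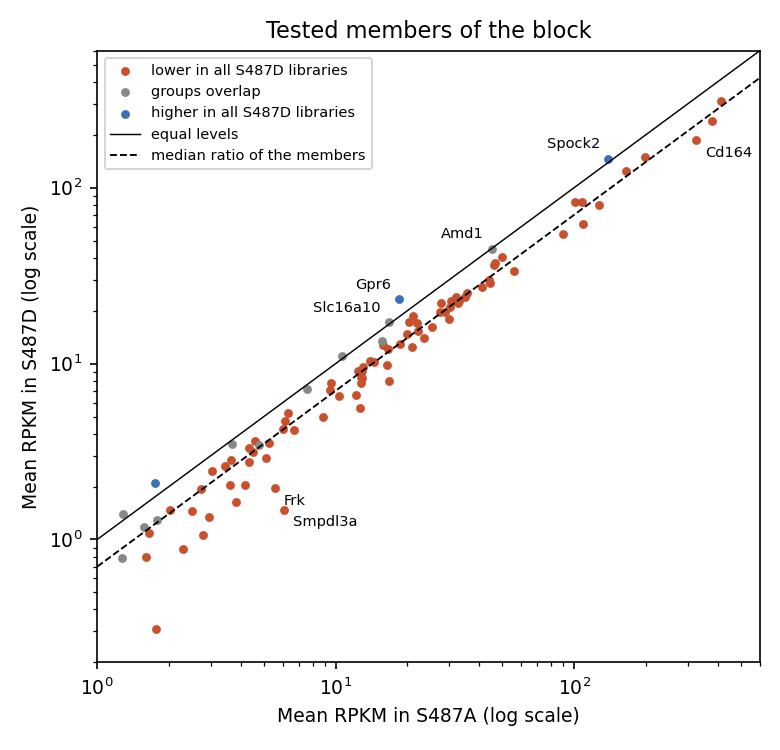
Mean RPKM in S487A (x, log scale) and in S487D (y, log scale) of the 96 compared members, coloured by whether the groups' libraries overlap. The solid line marks equal levels and the dashed line the median ratio of 0.701; most points follow the dashed line from the lowest to the highest levels, and Gpr6, Spock2, Amd1 and Slc16a10 lie on or above the solid line.

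Psap, the most strongly read member, encodes the precursor of the saposins, which activate lysosomal sphingolipid hydrolases. It lies from 29831302 to 29856876 and was read at 408, 417 and 416 RPKM in S487A against 311, 303 and 313 in S487D. All S487D values lay well below the S487A values, with a ratio of 0.747 (414 ± 4.64 against 309 ± 5.36, SD, n = 3). Cd164, a sialomucin of endosomes and the cell surface, was read at 351, 316 and 308 RPKM and at 193, 180 and 183. The highest S487D value lay well under the lowest S487A value, and the ratio was 0.571.

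Serinc1, a serine incorporator family membrane protein, had 118, 101 and 106 RPKM in S487A against 64.4, 61.6 and 59.5 in S487D. Snx3, a sorting nexin that works with retromer, was read at 198 ± 9.35 and 148 ± 3.84 RPKM. The retromer subunit gene Vps26a had a lower ratio of 0.636. Sar1a, the GTPase that starts COPII vesicles at the endoplasmic reticulum, was read at 108 ± 3.13 and 83.2 ± 2.08 RPKM, in a row that overlaps another. In the list of secretory, endosomal and lysosomal genes, 15 of 17 were members and 13 were compared. Of these, 12 were lower and 1 overlapped, with a median ratio of 0.746. The overlapping gene was Ostm1, the partner subunit of the lysosomal chloride transporter ClC-7. Srgn and Man1a1 were under the limit. These lists, like the block, were drawn up with earlier results of these data known.

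Mitochondrial genes of the block included the pore of the calcium uniporter, through which calcium enters the mitochondrial matrix and stimulates ATP production in beta cells. Mcu, the pore subunit, was read at 25.5, 26.8 and 29.8 RPKM in S487A against 20.02, 20.6 and 18.7 in S487D. All S487D values lay below the S487A values, with a ratio of 0.722. Ppa1, a cytosolic pyrophosphatase that was put on the same list, was among the less lowered members at 100 ± 4.005 and 82.8 ± 1.94 RPKM. Aifm2, an oxidoreductase that recycles coenzyme Q, was read at 6.68 ± 0.472 and 4.22 ± 0.403 RPKM, in a row that overlaps H2afy2. On the list of mitochondrial genes, Lace1 also stands under its newer name Afg1l. Of this list 8 were members, all 8 were compared and all 8 were lower, with a median ratio of 0.704. The list holds Ppa1 and leaves out Supv3l1, a helicase of mitochondrial RNA, so these counts describe the list only.

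Ratios on the list of DNA and cell cycle genes ran from 0.545 to 0.811, the upper end being that of Ccar1. Rev3l, the catalytic subunit of DNA polymerase zeta, was read at 12.9, 12.1 and 11.53 RPKM in S487A against 6.76, 6.36 and 6.79 in S487D. It had the lowest ratio of its list, 0.545. Ascc3, a helicase of alkylation repair, was read at 12.9 ± 0.298 and 9.02 ± 0.469 RPKM, and its partner gene Ascc1, at the other end of the block, at 44.2 ± 2.80 and 28.8 ± 1.09. Asf1a, a histone chaperone, had a ratio of 0.737 in a row that overlaps Mcm9, a helicase gene with 0.700. Cdc40, a splicing factor, had 0.702 and Supv3l1, a helicase of mitochondrial RNA, had 0.693. Of 13 listed genes 8 were members, and all 8 were compared and lower, with a median ratio of 0.699.

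Of 15 listed chromatin and transcription factor genes 8 were members and 3 were compared. H2afy2, the histone variant macroH2A2, was read at 44.0 ± 1.26 and 29.98 ± 1.25 RPKM, Hsf2, a heat shock factor, at 15.8 ± 1.52 and 12.7 ± 0.943, and the zinc finger gene Zbtb24 at 3.02 ± 0.219 and 2.46 ± 0.179. All 3 were lower, with ratios of 0.682, 0.808 and 0.817. Zbtb24 was lower without overlap but was not called by limma. Neurog3, the factor that starts endocrine development, had 0 reads in every library, where 3 reads in a gene of 1 kb would stand for 0.276 to 0.318 RPKM. This limit covers counting error only.

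Compared genes on the list of RNA processing and translation, which also holds Pcbd1 and Tysnd1, were all lower. Eif4ebp2, which holds back the cap-binding factor eIF4E, was read at 123, 133 and 125 RPKM in S487A against 77.6, 77.3 and 85.7 in S487D. Its row overlaps Lrrc20. Pcbd1, a pterin dehydratase that also binds the transcription factor HNF1, was read at 370, 371 and 395 RPKM and at 244, 233 and 243. It was the second most strongly read member, and its ratio of 0.634 was below that of Psap. Ddx21 and Ddx50, neighbouring genes of nucleolar RNA helicases, had ratios of 0.680 and 0.598, and Rpf2, a ribosome assembly factor, had 0.805. Of 9 listed genes 7 were members and all 7 were compared and lower, with a median ratio of 0.680.

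Ratios of kinase and cytoskeletal genes ran from 0.349 to 0.889. Frk, a tyrosine kinase related to Src, was read at 5.67, 5.56 and 5.54 RPKM in S487A against 1.91, 2.16 and 1.78 in S487D. Its ratio of 0.349 was far below that of Fyn, another kinase of the Src family, which was read at 20.9 ± 0.628 and 12.4 ± 1.10 RPKM with a ratio of 0.594. Marcks, an actin-binding substrate of protein kinase C, had 0.678, and Hace1, a ubiquitin ligase, had 0.736. Wasf1, a WAVE protein of actin branching, was the least lowered of the list at 20.7, 20.1 and 22.1 RPKM against 20.04, 17.7 and 18.3. Its groups were separated by a narrow margin, and limma did not call it. Of 11 listed genes 7 were members, 6 were compared and all 6 were lower, with a median ratio of 0.693.

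Among neural and junction genes, Cdh23, a cadherin of sensory hair cells, was read at 3.81, 4.02 and 3.64 RPKM in S487A against 1.63, 1.57 and 1.71 in S487D. This ratio of 0.428 was the lowest of its list. Unc5b, a netrin receptor, had 0.731, Sobp 0.834 and the kainate receptor subunit Grik2 0.659, the last not called by limma. All 4 compared members were lower, and the other 4 of the 8 members on this list, Slc35f1, Pln, Gja1 and Fabp7, were under the limit. None of the 5 extracellular matrix genes listed was read enough to be compared.

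Ratios on the list of lipid and small molecule enzymes, which also holds the carriers Slc16a10 and Slc29a3, ran from 0.243 to 1.02. Smpdl3a, a phosphodiesterase related to acid sphingomyelinase, was read at 6.78, 5.82 and 5.68 RPKM in S487A against 1.70, 1.01 and 1.72 in S487D. Its ratio of 0.243 was the lowest of the compared members with an established symbol (log2 difference -1.53, SE 0.125). P4ha1, a collagen prolyl hydroxylase subunit, was read at 12.6, 12.4 and 12.8 RPKM and at 5.61, 5.86 and 5.21, which gave a ratio of 0.441. Sgpl1, which degrades sphingosine phosphate, and Prep, a prolyl peptidase, had ratios of 0.772 and 0.786. Amd1, which makes decarboxylated adenosylmethionine for polyamine synthesis, was read at 48.1, 42.7 and 45.2 RPKM in S487A against 46.8, 43.7 and 44.5 in S487D, so that the groups overlapped. Of 13 listed genes 9 were members and were compared, 6 were lower and 3 overlapped, with a median ratio of 0.772. The overlapping genes were Amd1 and the carriers Slc16a10 and Slc29a3.

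Besides Frk, Smpdl3a, P4ha1 and Cdh23, the largest differences included Pkib, an inhibitor of cAMP-dependent protein kinase. It was read at 17.4, 15.3 and 17.3 RPKM in S487A against 7.92, 7.95 and 8.04 in S487D. The S487D libraries were almost equal, and the ratio was 0.478. Tbc1d32, a gene of the primary cilium whose row overlaps others, was read at 2.77 ± 0.188 and 1.06 ± 0.0561 RPKM. In all, 11 of the 96 members had a ratio under 0.5. The lowest, 0.176, belonged to the uncharacterised row LOC102555143, which has few reads and lay at 1.48, 2.36 and 1.45 RPKM in S487A against 0.791, 0.142 and 0 in S487D.

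**Figure D3:**
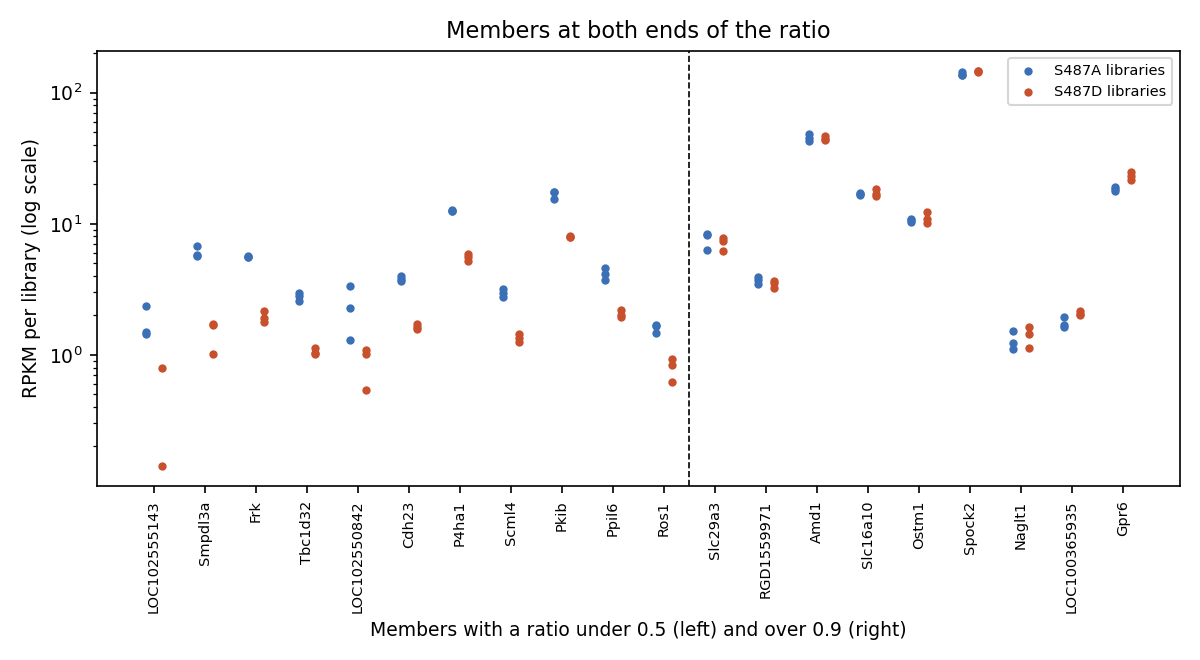
RPKM per library (log scale) of the 11 members with a ratio under 0.5 (left of the dashed line) and the 9 with a ratio over 0.9 (right), each with 3 S487A and 3 S487D libraries. All members on the left are separated between groups, while on the right Gpr6, Spock2 and LOC100365935 are higher in S487D; the S487D library of LOC102555143 at 0 cannot be drawn on this scale.

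Some members escaped the lowering. A ratio over 0.9, a limit set after the values were seen, was held by 9 of the 96 members, against 8427 of all 12527 rows compared. Since this contrast chose the block, nothing is read from that difference. In the stretches of chromosomes 2 and 7 picked from the same contrast, 13 of 144 and 27 of 159 compared rows had such a ratio. The 9 members were Spock2, Slc29a3, LOC100365935, RGD1559971, Naglt1, Slc16a10, Amd1, Gpr6 and Ostm1. Slc29a3 carries nucleosides, Slc16a10 aromatic amino acids and Naglt1 sodium with glucose. RefSeq now names RGD1559971 Mfsd4b1.

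Gpr6, an orphan receptor that raises cAMP without added ligand, was read at 18.5, 17.8 and 19.1 RPKM in S487A against 24.9, 21.7 and 23.3 in S487D. It was the only member called higher by limma, with a ratio of 1.26 (log2 difference 0.32, SE 0.058). Spock2, a testican proteoglycan, was read at 137, 143 and 137 RPKM and at 148, 147 and 143. Its groups touched without overlapping, and the difference was small at a ratio of 1.05. Slc16a10 was read at 17.0, 16.8 and 16.5 RPKM and at 16.4, 16.7 and 18.4, and Ostm1 at 10.6 ± 0.339 and 11.1 ± 1.07 RPKM. The signs of 5 of these members turned with the processing: Naglt1 without S487D replicate 2, Ostm1 without S487D replicate 1, Slc16a10 without S487D replicate 3, Amd1 after median centring and without single libraries, and Slc29a3 after quantile normalization and without S487D replicate 1.

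Some of the escaping genes stood alone and others stood together. Spock2, from 29654579 to 29679927, lies between Ascc1 (ratio 0.651) and Psap (0.747). Slc29a3 lies between Cdh23 (0.428) and Unc5b (0.731), and Ostm1 lies between LOC103694448 (0.724, with overlapping groups) and Sec63 (0.710). LOC100365935 lies between Nus1 (0.746) and Mcm9 (0.700). From RGD1559971 at 44996359 to the end of Gpr6 at 45815940, within 0.820 Mb, 5 of 8 compared members had a ratio over 0.9. Both ends of this stretch were set at escaping genes after the values were seen. The other three, Rpf2, Gtf3c6 and Cdk19, were lower, with ratios of 0.805, 0.805 and 0.689. On either side of this stretch stood Rev3l (0.545) and Fig4 (0.596). In the gene order of GRCr8, Cdc40 (0.702) and Wasf1 (0.889), both lower, lie between Cdk19 and Gpr6 and so inside this stretch. The compared genes next to Gpr6 are then Wasf1 and Fig4. The rn6 build places Wasf1 and Cdc40 further along, so the local order here depends on the assembly.

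Some neighbours share a promoter region and can be compared with each other. In 7 pairs of compared members, a minus-strand row ended within 1000 bases of the start of a plus-strand row. Both genes were lower in 5 pairs, only 1 in another, and neither in the last, LOC103694448 and Ostm1. With 82 of the 96 compared members lower, nothing about shared promoters is read from this count. Among the 5 pairs, the rows of Anapc16 and Ascc1 overlap each other, as do those of LOC103694432 and Sar1a. The ratios within a pair were not alike throughout. Wasf1 and Cdc40, 205 bases apart, had 0.889 and 0.702, and Smpd2 and Ppil6, 88 bases apart, had 0.747 and 0.493. Qrsl1 and Rtn4ip1, 14 bases apart, had 0.767 and 0.668. Whether the libraries and the read counting kept strand was not tested, so reads of rows that overlap or nearly touch may be mixed. Of the 96 compared members, 28 overlap another listed row, and without them the median ratio was 0.714.

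Along the block the profile was uneven, and no step had a median ratio above 0.805. In steps of 2 Mb from its start, the median ratio was 0.706 in the first step (14 members compared), 0.682 in the second (19), 0.716 in the next (6) and 0.718 in the fourth (4). It was lowest in the middle. The single member of the fifth step, Tbc1d32, had 0.383, and the 4 members of the sixth, which are Hsf2, Serinc1, Pkib and Smpdl3a, had a median of 0.524. The seventh step, with Frk, had 0.615 (4 members) and the eighth 0.653 (7). The ninth, which holds the cluster around Slc16a10 and Gpr6, had the highest median, 0.805 (14). The next 2 steps had 0.724 (13) and 0.746 (5). The twelfth had no compared member, in a gap of 3.01 Mb between Hace1 and Grik2, and the last 2 had 0.636 (2) and 0.754 (3).

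**Figure D4:**
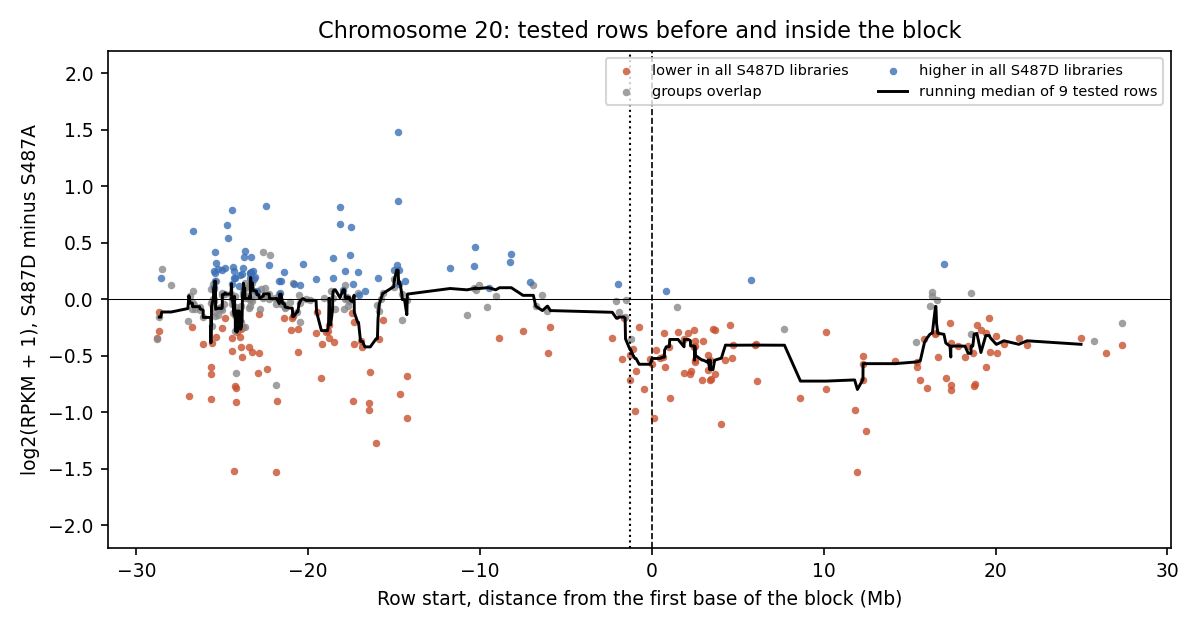
Difference of mean log2(RPKM + 1), S487D minus S487A, for 378 compared rows of chromosome 20 (y) against the distance of the row's start from the first base of the block in Mb (x), with a running median of 9 rows in black. The dashed line is the start of the block and the dotted line the start of Rwdd1; inside the block the running median runs from -0.80 to -0.06, with its highest stretch around Slc16a10 and Gpr6.

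The lowering reached to the end of the listed chromosome. Cd99, a cell-surface glycoprotein gene and the last row, was read at 151, 170 and 174 RPKM in S487A against 113, 131 and 129 in S487D, with a ratio of 0.754. The row before it, LOC103694460, overlapped between groups at 15.7 ± 1.51 and 13.5 ± 1.57 RPKM. Ascc3 and Grik2, the named genes before these, had ratios of 0.699 and 0.659.

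The other edge lay outside the limits of the rule. Just inside them, Sowahc was read at 12.9 ± 0.457 and 8.33 ± 0.277 RPKM, and just outside them a row whose name had been turned into a date was read at 8.38 ± 0.867 and 5.51 ± 0.212. Their ratios of 0.646 and 0.657 were nearly the same, so no step lies at the start of the block. The lowered run went on outward for 1.28 Mb, over 9 compared rows, to Rwdd1 at 27535316. Of these 9, 8 were lower and 1, Fam26d, overlapped, with a median ratio of 0.603. Rwdd1 was read at 89.9, 79.5 and 79.1 RPKM in S487A against 49.3, 52.4 and 48.0 in S487D. Ranbp2, a nuclear pore gene, was read at 40.1, 32.9 and 32.7 and at 20.2, 19.5 and 19.7. Gcc2, a golgin gene, had the lowest ratio of the run, 0.463. In this run S487A replicate 1 was the highest S487A library, with a median of 1.11 times the S487A mean.

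The next compared row outward was Slc25a16, from 27283383 to 27308069, a mitochondrial carrier gene whose groups overlapped. It was read at 8.67, 7.40 and 7.79 RPKM in S487A against 7.45, 7.89 and 8.32 in S487D, with a ratio of 0.991. Between its end and Rwdd1 lie 227 kb with 3 rows that never exceeded 0.371 RPKM, so the edge was not placed more closely. Among them Tet1, a DNA demethylation gene from 27359125 to 27438039, had 0, 0 and 1 reads in S487A and 22, 13 and 20 in S487D, the opposite direction to the run. Slc25a16 and Rwdd1 are also next to each other among the compared genes in GRCr8. The step was not the only difference on that side. Of the 10 compared rows ending with Slc25a16, 5 were lower, 4 overlapped and 1 was higher, with a median ratio of 0.849, and Pbld1 was at 84.7 ± 1.81 and 58.6 ± 1.30 RPKM. Over all 273 compared rows of chromosome 20 before Rwdd1, 71 were lower, 130 overlapped and 72 were higher, and the median ratio was 0.998. The place of this edge was chosen after the values were seen.

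**Figure D5:**
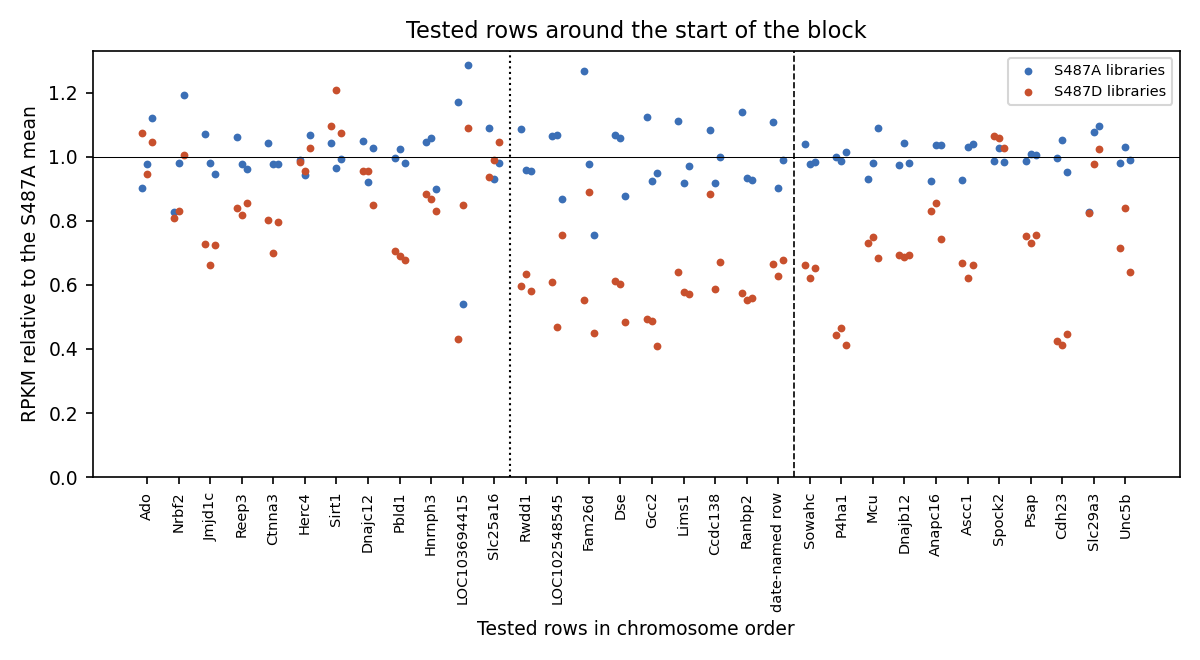
RPKM relative to the row's S487A mean (y) in each of the 6 libraries for the 12 compared rows before Rwdd1, the run from Rwdd1 to the block, and 11 of the first 12 compared members, in chromosome order (x). The dotted line marks the start of the run at Rwdd1 and the dashed line the start of the block; right of the dotted line the S487D libraries lie below the S487A libraries except in Fam26d, Spock2 and Slc29a3, and left of it 5 of the last 10 rows do.

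For scale, rows from 105 to 182 Mb of chromosome 2, another lowered stretch, had a median ratio of 0.539 over 144 compared rows, and rows from 130 to 145 Mb of chromosome 7 had 0.685 over 159. These stretches were picked from the same contrast, so the differences between them were not tested. Ratios under 0.5 were held by 49 of the 144 rows on chromosome 2, 22 of the 159 on chromosome 7 and 11 of the 96 members on chromosome 20.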

How the data were processed

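RNA of 6 libraries was sequenced after Trizol extraction and preparation with a TruSeq RNA kit, per the labels' protocols. The submitters' processing notes name the rn6 build and the tools TopHat2 2.0.13, cutadapt and bcl2fastq 2.17. The read counter and annotation were not given in the sources used here. Values deposited by the authors are RPKM per gene and library, beside rn6 position, strand and length, per the file headers. The deposited RPKM was multiplied by length and divided by a scale fitted for each library to give whole reads. Values below 2000 reads then came out whole (tolerance 0.05 read) in 100% of cases.

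Rows that reached RPKM 1 in 3 or more libraries entered one fit of log2(RPKM + 1) by limma 3.58.1 under R 4.3.3, with group as sole term, empirical Bayes with a trend on intensity, and Benjamini-Hochberg adjustment over all rows. This fit was run on simulated reads with far fewer changed rows than were called here, so that run does not measure its errors in these data. Group and replicate came from sample titles. The members and gene lists were chosen with earlier results of these data known. Named members are the 10 largest falls, the 10 highest differences and the 10 highest levels among established symbols, up to 4 of each list, and rows at the edges; genes named beyond these were chosen after their values were seen. Symbols of 89 of the 96 compared members matched RefSeq (GRCr8), used for names, order and promoters. Python 3.11.15 was used for tables. One member is not reported here by name.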

Additional observations from a re-analysis of the deposited data

How the results depend on the processing

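The median log2 difference of the compared members was negative in every alternative run. It was -0.509 and -0.515 with pseudocounts of 0.1 and 0.01, -0.163 over 204 members without a filter, -0.472 with a filter at RPKM 5, -0.407 after quantile normalization, -0.377 after median centring and -0.511 with limma voom on the reads worked out. It was -0.418 with the start moved inward by 1 or 2 Mb, and -0.476 to -0.423 with single libraries left out. Chosen after seeing the data, leaving out the most read rows gave -0.413 and moving the start outward to Rwdd1 gave -0.471. Members called lower numbered 61 to 82 over all 17 settings, which did not compare equal numbers of members. The 61 were of 68 compared with the filter at RPKM 5, where 2306 of all 9086 rows were called lower. Without a filter 79 of 204 members were called lower, as were 2989 of all 23180 rows. The other settings compared 96 members and called 2453 to 3297 of all rows lower. Members called higher numbered 3 without a filter and 2 after quantile normalization or median centring. Over all rows these 3 settings called 2212, 3096 and 3512 higher. Overlapping members numbered 103 of 204 without a filter and 5 of 68 with the filter at RPKM 5. Over all rows 14780 of 23180 and 3782 of 9086 overlapped. Without a filter 7 of 204 members were higher without overlap, as were 3700 of 23180 rows. Single libraries left out gave 74 to 81 called lower, 82 to 85 lower without overlap and 8 to 11 overlapping. Of all 12527 rows, the same runs called 2547 to 2738 lower. They had 3950 to 4257 rows lower without overlap and 4789 to 4932 overlapping. The median before the block was 0.047 after median centring and -0.03 to 0.01 with single libraries left out. Of 59 named rows, 54 kept their sign in every alternative that held them, at most 14 per row. Replicate numbers are shared by the groups, but deviations of same-numbered libraries did not go together (r of 0.00, -0.06 and 0.01). With a replicate block 80 members were called lower and 1 higher, as without it. Over all rows that fit called 2966 lower and 2369 higher. At this depth, rows under 1 RPKM hold few reads and were left out of the main comparison.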

Other observations

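The members under the limit, which are not in the comparisons above, held 497, 546 and 502 reads in the S487A libraries and 337, 275 and 306 in the S487D libraries, summed over 181 rows. The sums were lower in each S487D library. Most of these rows have too few reads to be described. The rows named next had at least 50 reads over the S487A libraries and no overlap, a rule made after the values were seen that cannot take rows read mainly in S487D. Since the rule used this same contrast, the intervals given with them are a description and support nothing. Each interval pools the reads of the libraries of a group.

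Aim1, a crystallin-domain gene from 48927942 to 49123735, had 32, 38 and 34 reads in S487A and 1 in each S487D library. Per assigned read, S487D held 0.0308 of the S487A level, with an exact 95% interval of 0.00625 to 0.0925 that covers counting error only. The lowest ratio of a compared member was 0.176. Npffr1, a neuropeptide FF receptor gene, had 103 reads over S487A and 19 over S487D, a ratio of 0.197 with an interval of 0.114 to 0.323. Stox1 had 82 and 32 reads, a ratio of 0.417 (0.268 to 0.634), and Man1a1, a Golgi mannosidase gene, had 130 and 54, a ratio of 0.443 (0.317 to 0.613). Prdm1, a transcriptional repressor gene, had 96 and 52 reads, a ratio of 0.578 (0.404 to 0.818), and the row RGD1310495 had 54 and 17, a ratio of 0.336 (0.183 to 0.589).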
